A study of Mus musculus with 12 samples.

Results

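The 9 genes described here encode proteins of glucose uptake and glycolysis: Slc2a1, Hk1, Hk2, Pfkp, Aldoa, Tpi1, Pgk1, Pkm and Ldha. They were chosen by symbol from an FPKM table of 18505 genes (FPKM, fragments scaled to transcript length and to the number of mapped fragments), 1 row per gene. The rule names them by symbol and sets no threshold on a measured value, but the list was drawn up with earlier results of these data known. All 9 passed the filter on low values, a mean of at least 0.1 FPKM over the samples, which 15288 genes passed. RNA from the back skin of male wild-type (WT) BALB/c mice, 5 to 6 weeks old, was sequenced on day 10 in 3 groups of 4 samples. In the control group shaved back skin was coated with petroleum jelly, while the treatment label of these samples reads "white space handling". In the IMQ + NS group imiquimod (IMQ) cream, a TLR7 agonist that gives psoriasis-like lesions, was applied daily and the skin was then covered with saline (NS) under gauze and film. In the IMQ + BZLF group the same cream was followed by Banzhilian formula (BZLF), an external preparation of 9 medicinal materials, in place of saline. The dose of BZLF in the sequenced samples is not given in the sources used here, and neither is whether a sample is 1 mouse or a pool, so the p-values measure the spread between these samples. The control group had neither saline, gauze nor film, so imiquimod and the dressing cannot be told apart in comparisons with it.

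Glucose enters most cells through facilitative transporters such as GLUT1, is trapped by hexokinases, and is split and oxidised to pyruvate by a chain of cytosolic enzymes. Lactate dehydrogenase then reduces pyruvate to lactate, which restores the NAD+ that the chain consumes. Several steps have isozymes: skeletal muscle, which lies under mouse skin as the panniculus carnosus, uses GLUT4, PFKM, PGAM2 and ENO3, while keratinocytes and leukocytes mostly use GLUT1, PFKP or PFKL, PGAM1 and ENO1. Aldolase A is the aldolase of muscle as well as of most other tissues. Many of these genes are known targets of the hypoxia-inducible factor HIF1A.

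FPKM values are scaled to transcript length, so levels were set side by side between genes. Annotated near-identical copies of Tpi1, Pgk1, Pkm and Ldha, described below, leave their place in this order uncertain. In control skin Aldoa had the highest level of the 9, at 1089 ± 298 FPKM (SD, n = 4), followed by Tpi1 at 319 ± 52.7 FPKM and Ldha at 162 ± 24.1 FPKM. Pgk1 at 115 ± 6.91 FPKM and Pkm at 114 ± 8.97 FPKM came next, and their ranges over samples overlapped. Pfkp, Hk2, Hk1 and Slc2a1 lay far lower, between 11.9 and 16.7 FPKM on average, and each overlapped its neighbour in this order. In the IMQ + NS group Slc2a1 stood above Pfkp, Hk1 and Hk2 without overlap, and Ldha, Pgk1 and Pkm overlapped. In the IMQ + BZLF group Ldha, Pgk1 and Pkm did not overlap and Slc2a1 lay among Hk1 and Hk2. The summed level of the 9 genes was between 1290 and 2147 FPKM in control samples, between 964 and 1202 FPKM in IMQ + NS samples and between 909 and 927 FPKM in IMQ + BZLF samples. Aldoa alone made up 50.2% to 61.4%, 36.5% to 44.5% and 47.1% to 47.8% of that sum, more than any other member. The sum was not tested.

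**Figure D1:**
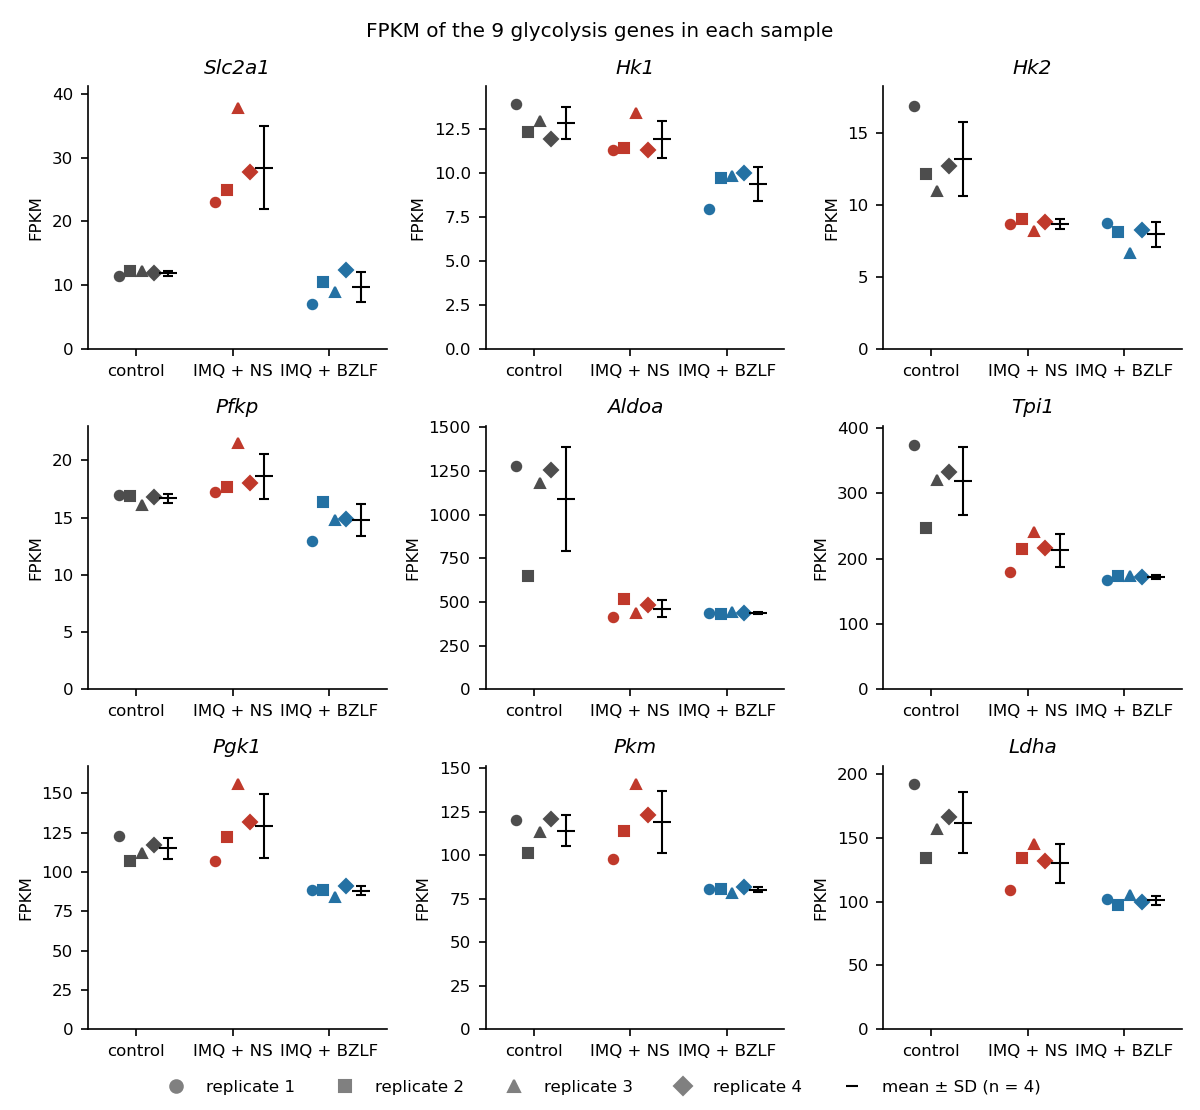
FPKM (y axis, from 0) of each of the 9 genes in every sample, by group (x axis: control, IMQ + NS, IMQ + BZLF). Symbols mark replicates 1 to 4 and the bar gives the mean ± SD (n = 4). Slc2a1 in IMQ + NS samples sits between 23.1 and 37.7 FPKM, above every sample of the other groups, and Aldoa in control replicate 2, at 647 FPKM, lies apart from the other control samples.

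Imiquimod lesions were first compared with control skin. Of the 9 genes 1 rose (Slc2a1) and 3 fell (Hk2, Aldoa and Tpi1), and 5 did not pass the test. Each gene was tested on log2(FPKM + 0.1) with limma and called at a Benjamini-Hochberg adjusted p below 0.05 over all 15288 genes. By this rule 29.0% of all tested genes were higher and 27.1% lower in IMQ + NS than in control samples, so 1 and 3 of 9 do not stand out from the background. The median log2 fold change was -0.10 over the 9 genes and 0.05 over all tested genes. In bulk skin, fewer cells of a type and less RNA per cell cannot be told apart, and this holds for every difference below.

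Slc2a1 encodes GLUT1, the basal glucose transporter of the epidermis and of leukocytes. Its level in control replicates 1 to 4 was 11.4, 12.2, 12.3 and 11.9 FPKM. In IMQ + NS replicates it was 23.1, 24.9, 37.7 and 27.8 FPKM. Every IMQ + NS sample thus lay above every control sample, with replicate 3 the highest. The log2 fold change was 1.22 (SE 0.14, limma adjusted p = 0.000187), and the ratio of the means was 2.38. Leaving out IMQ + NS replicate 3 gave a log2 fold change of 1.07 (limma adjusted p = 0.000138).

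The hexokinases phosphorylate glucose. Hk2, the inducible form that is prominent in muscle and fat, measured 16.9, 12.2, 11 and 12.7 FPKM in control replicates 1 to 4. In the IMQ + NS replicates it measured 8.70, 9.02, 8.18 and 8.86 FPKM. These groups did not overlap, and Hk2 fell by 0.58 on the log2 scale (SE 0.13, limma adjusted p = 0.00525). Hk1, the ubiquitous form, ranged from 11.9 to 13.9 FPKM in control samples and from 11.3 to 13.4 FPKM in IMQ + NS samples, and its log2 fold change of -0.10 (SE 0.09) did not pass the test (limma adjusted p = 0.347). The ratio of Hk2 to Hk1 was between 0.852 and 1.21 in control samples and between 0.609 and 0.790 in IMQ + NS samples. Pfkp, the platelet-type phosphofructokinase of the committed step, ranged from 16.1 to 17.0 FPKM and from 17.2 to 21.5 FPKM in these groups. Its samples did not overlap, yet the log2 fold change of 0.15 (SE 0.09) did not pass the test (limma adjusted p = 0.169).

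Aldoa encodes aldolase A, which splits fructose bisphosphate. It measured 1279, 647, 1178 and 1253 FPKM in control replicates 1 to 4. In the IMQ + NS replicates its level was 411, 519, 439 and 480 FPKM. All IMQ + NS samples lay below all control samples, and control replicate 2 was the control sample closest to them. Aldoa fell by 1.19 on the log2 scale (SE 0.21, limma adjusted p = 0.00155), and by 1.42 without control replicate 2. Tpi1, which interconverts the triose phosphates, followed the same order of groups, with 374, 247, 320 and 333 FPKM in control samples. It reached 179, 215, 241 and 216 FPKM in IMQ + NS samples, without overlap. Tpi1 fell by 0.57 on the log2 scale (SE 0.14, limma adjusted p = 0.00721).

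Pgk1, Pkm and Ldha, the members of the payoff phase and of lactate formation, showed no call in this comparison. Other genes of these steps were called and are described below. Pgk1, which makes the first ATP of the chain, ranged from 107 to 123 FPKM in control samples and from 107 to 156 FPKM in IMQ + NS samples, with a log2 fold change of 0.16 (SE 0.11, limma adjusted p = 0.252). Pkm, the pyruvate kinase gene whose PKM1 and PKM2 splice forms are summed in 1 value here, had a log2 fold change of 0.06 (SE 0.12, limma adjusted p = 0.69), which turned to -0.0761 after samples were scaled to equal sums and to -0.0285 without IMQ + NS replicate 3. Ldha, the lactate dehydrogenase A subunit, measured 192, 134, 157 and 166 FPKM in control samples. Its IMQ + NS values were 109, 134, 145 and 132 FPKM, and these groups overlapped. The log2 fold change of -0.31 (SE 0.13) missed the threshold (limma adjusted p = 0.0608) and passed it without control replicate 2, at -0.40 (limma adjusted p = 0.0114). Over all alternatives its limma adjusted p ranged from 0.011 to 0.153.

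Scaling bears on counts of lower genes in this comparison. When all samples were scaled to equal FPKM sums, the median log2 fold change of all genes moved from 0.05 to -0.07, the split over all genes became 3161 higher and 4999 lower in place of 4427 and 4142, and 5 of the 9 genes were called lower (with Hk1 and Ldha). Slc2a1 stayed higher, and Hk2, Aldoa and Tpi1 lower, under each scaling tried.

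The effect of BZLF on lesions was then examined by comparing IMQ + BZLF with IMQ + NS samples, the same 4 IMQ + NS samples as above. Of the 9 genes 0 rose, 4 fell (Slc2a1, Pgk1, Pkm and Ldha) and 5 did not pass limma's test. At an unadjusted p under 0.05 no gene was higher either, since the log2 fold change of every one of the 9 was below 0. Among all tested genes 1.28% were called higher and 5.17% lower, and 4 of 9 members is above that share of lower genes, a comparison given as a description. With median ratio scaling the split over all genes became 295 higher and 579 lower in place of 195 and 791, and with quantile normalization 311 and 661. The median log2 fold change of the 9 genes was -0.34, against -0.02 over all tested genes. By sample, 7 of the 9 genes were lower in every IMQ + BZLF sample than in any IMQ + NS sample, and Hk2 and Aldoa overlapped. The share of all genes without such overlap was not counted, so this 7 has no background beside it.

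Slc2a1 in IMQ + BZLF replicates 1 to 4 was at 7.04, 10.6, 8.92 and 12.4 FPKM. All of these lay below the lowest IMQ + NS value, 23.1 FPKM. The transcript fell by 1.54 on the log2 scale (SE 0.19, limma adjusted p = 0.00387), with a 95% interval from -1.97 to -1.10 and a ratio of the means of 0.344. It fell by 1.39 without IMQ + NS replicate 3.

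Pgk1 measured 107, 122, 156 and 132 FPKM in IMQ + NS replicates 1 to 4. With BZLF it measured 88.6, 88.5, 84.3 and 91.0 FPKM. The BZLF-treated samples lay close together, below the lowest IMQ + NS sample. Pgk1 fell by 0.54 on the log2 scale (SE 0.10, limma adjusted p = 0.0166). The call was lost without IMQ + NS replicate 4 (limma adjusted p = 0.0525) and without IMQ + BZLF replicate 2 (limma adjusted p = 0.0534). Over all alternatives its limma adjusted p ranged from 0.00776 to 0.0534.

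Pkm gave 98.0, 114, 141 and 123 FPKM in IMQ + NS samples. Its IMQ + BZLF values were 80.6, 80.4, 78.5 and 81.4 FPKM, again without overlap. Pkm fell by 0.56 on the log2 scale (SE 0.10, limma adjusted p = 0.0129). Ldha gave 102, 97.7, 105 and 99.8 FPKM in IMQ + BZLF samples, below the lowest IMQ + NS value of 109 FPKM. Ldha fell by 0.35 on the log2 scale (SE 0.08, limma adjusted p = 0.0429). Its call depended on the setting: it was lost with no filter, median ratio scaling, 1 fit of all 12 samples, no variance trend or the replicate block, and without any 1 of 7 of the 8 libraries, at limma adjusted p-values from 0.0567 to 0.116. Without IMQ + NS replicate 1, the lowest of its group, the limma adjusted p was 0.00741.

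The remaining genes did not pass the test in this comparison. Hk1 ranged from 7.95 to 10 FPKM with BZLF, a log2 fold change of -0.34 (SE 0.09, limma adjusted p = 0.0612). Pfkp ranged from 13.0 to 16.4 FPKM, a log2 fold change of -0.33 (SE 0.09, limma adjusted p = 0.066). Tpi1 ranged from 167 to 174 FPKM, a log2 fold change of -0.30 (SE 0.08, limma adjusted p = 0.0679), and passed the test without IMQ + NS replicate 1 (limma adjusted p = 0.0138). Each of these 3 lay below the IMQ + NS range without overlap. Hk2 ranged from 6.72 to 8.77 FPKM with a log2 fold change of -0.13 and a 95% interval from -0.32 to 0.07 (limma adjusted p = 0.425). Aldoa ranged from 431 to 441 FPKM with a log2 fold change of -0.08 and an interval from -0.26 to 0.10 (limma adjusted p = 0.605).

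**Figure D2:**
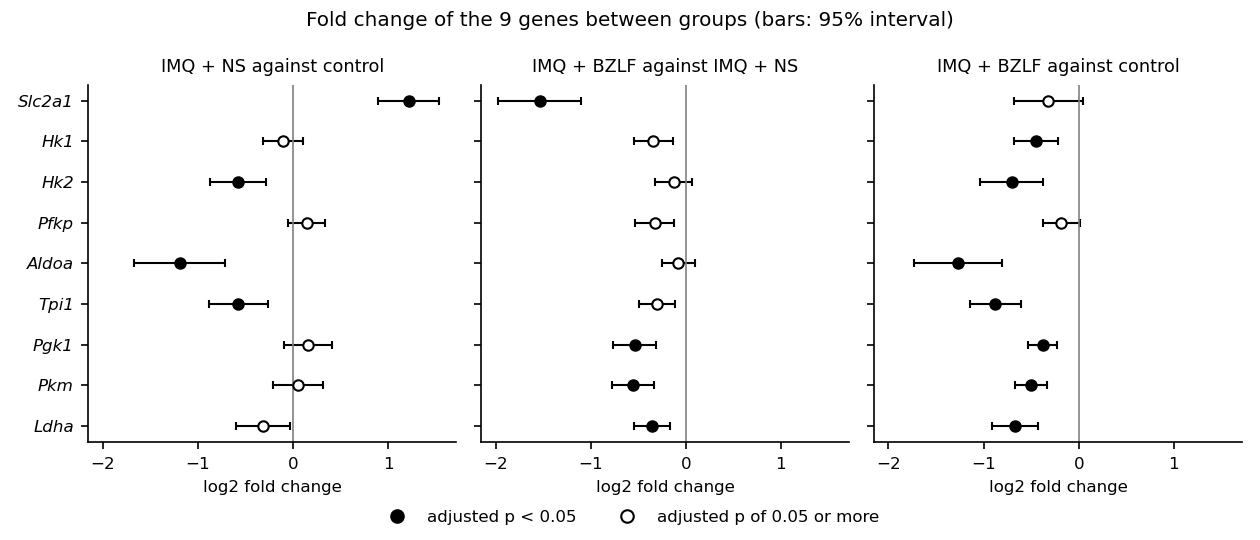
Log2 fold change (x axis, on log2(FPKM + 0.1)) of the 9 genes (y axis) for each pair of groups, with 95% intervals from limma. Filled points had an adjusted p below 0.05. Slc2a1 lies at 1.22 in IMQ + NS against control and at -1.54 in IMQ + BZLF against IMQ + NS, and Aldoa at -1.19 and -0.08.

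IMQ + BZLF samples were last compared with control samples, which shares both groups with the comparisons above and adds no independent samples. Slc2a1 and Pfkp overlapped the control range and did not pass the test, with log2 fold changes of -0.32 (95% interval -0.68 to 0.04, limma adjusted p = 0.122) and -0.18 (interval -0.38 to 0.01, limma adjusted p = 0.104). The other 7 genes were lower in every IMQ + BZLF sample than in any control sample. How many of all genes did so was not counted. By the test all 7 fell, while 0 rose, since all 9 log2 fold changes were below 0. Among all tested genes 23.8% were called higher and 29.2% lower. The falls ranged from -0.38 for Pgk1 (SE 0.07, limma adjusted p = 0.00201) to -1.27 for Aldoa (SE 0.20, limma adjusted p = 0.00117). Between these lay Hk1 at -0.45, Pkm at -0.50, Ldha at -0.67, Hk2 at -0.70 and Tpi1 at -0.88. The median of the 9 genes was -0.50, against -0.02 over all genes. With equal sums the median of all genes moved to -0.12, and the split over all genes became 2771 higher and 5179 lower in place of 3640 and 4458.

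Skeletal muscle transcripts differed strongly between these skin samples. The summed level of 20 muscle markers, led by Acta1, Ckm and Tnni2, was 13556, 5494, 12295 and 12604 FPKM in control replicates 1 to 4. It was 1132, 2334, 990 and 1337 FPKM in IMQ + NS samples and 2006, 1938, 1722 and 2348 FPKM in IMQ + BZLF samples. Of these markers 19 of 20 fell in IMQ + NS against control samples (median log2 fold change -2.78) and 19 of 20 in IMQ + BZLF against control samples (-2.36). With BZLF against saline 1 of 20 rose and 0 fell (median 0.48). None of the 20 was at 0 in all samples of a group.

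The muscle isozymes moved with these markers. Pfkm measured 114, 53.3, 120 and 151 FPKM in control samples and between 15.3 and 23.2 FPKM in IMQ + NS samples, a log2 fold change of -2.54 (limma adjusted p = 0.000192). Pgam2 fell by 3.32 on the log2 scale, from 257 ± 88.2 to 26.5 ± 14.0 FPKM (SD, n = 4 each, limma adjusted p = 0.000192). Eno3 fell by 2.78, from 112 ± 36.4 to 15.7 ± 4.56 FPKM (limma adjusted p = 0.000109). None of the 3 passed the test in IMQ + BZLF against IMQ + NS samples, at 0.04 for Pfkm, 0.59 for Pgam2 and 0.29 for Eno3 (limma adjusted p = 0.873, 0.258 and 0.319).

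Within the control group, the muscle sum of replicate 2 was 42.9% of the mean of the other 3 control samples. Pfkm, Pgam2 and Eno3 in that sample were at 41.5%, 42.3% and 44.0%, and Aldoa at 52.3%. Tpi1 was at 72.2%, Ldha at 77.8% and Pkm at 85.9%, and Hk2, Pgk1 and Hk1 were at 90.2%, 91.3% and 95.3%. Pfkp at 102% and Slc2a1 at 103% of the other controls were not lower in it. In order, Aldoa, Tpi1 and Ldha were thus the members lowest, relative to the other controls, in the control sample with the fewest muscle transcripts, and among the members Aldoa, Tpi1 and Hk2 were those called lower in IMQ + NS samples. This sample differed in other marker lists too, including those of fat, as given below. The part of muscle or fat RNA in the lower Aldoa, Tpi1 and Hk2 was not tested.

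Control replicate 2 also stood apart in other ways. On the first principal component of all tested genes, which held 76.4% of the variance, it lay at -63.2 and the other 3 controls between -116 and -122. Its summed proliferation markers were 218 FPKM, against 22.1 to 37.2 FPKM, and its summed hair shaft markers 323 FPKM, against 13.9 to 34.3 FPKM. Its summed adipocyte markers were 4056 FPKM, against 6043 to 9105 FPKM in the other controls. Its summed hyperproliferative keratinocyte markers were 616 FPKM, against 190 to 251 FPKM. Without it, the counts of called members became 1 higher and 4 lower in IMQ + NS and 0 higher and 7 lower in IMQ + BZLF samples, both against control.

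**Figure D3:**
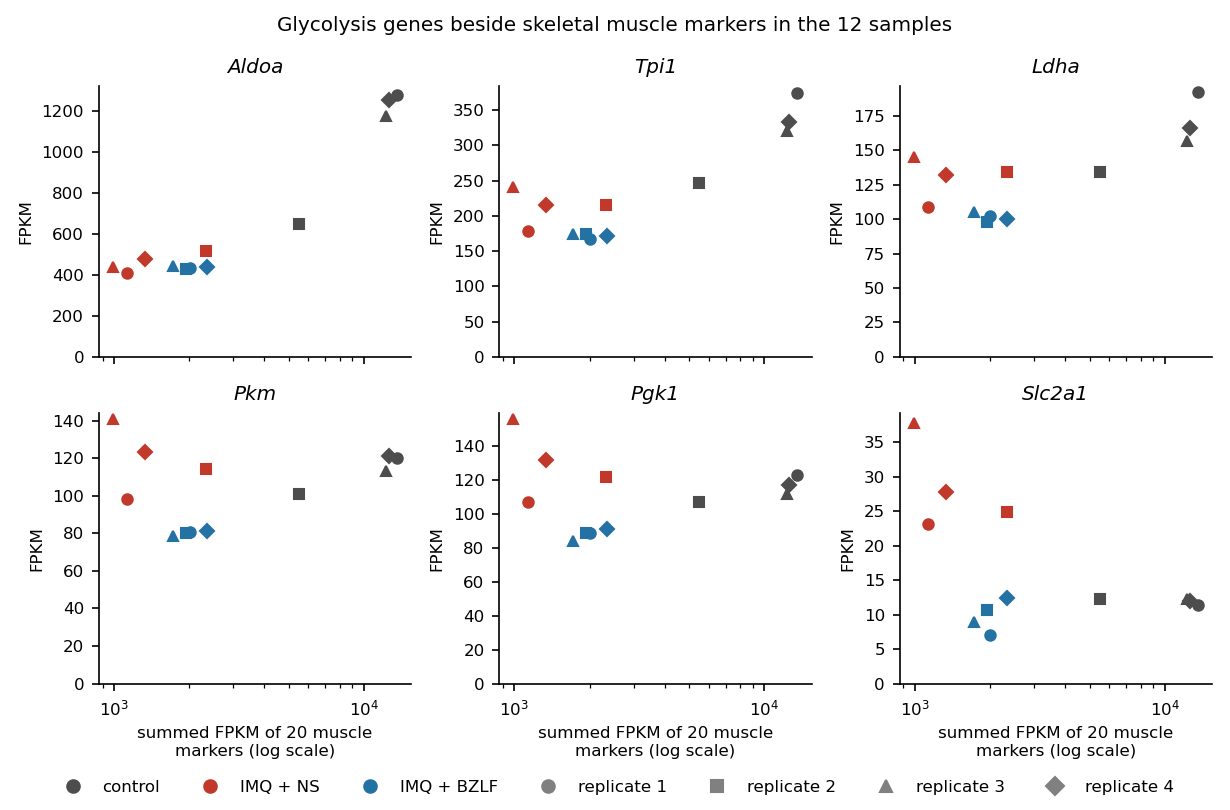
FPKM (y axis, from 0) of 6 of the 9 genes beside the summed FPKM of 20 skeletal muscle markers (x axis, log scale) in the 12 samples. Colours mark groups and symbols replicates. Control replicate 2, at 5494 FPKM of muscle markers, has 647 FPKM of Aldoa, between the other controls and the treated samples, while its Slc2a1 level of 12.2 FPKM equals that of the other controls to within 1 FPKM.

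Ratios between isozymes of 1 step do not change when all values of a sample are multiplied by the same factor. Quantile normalization is not of this kind and can change them. Slc2a4 (GLUT4, the insulin-responsive transporter of muscle and fat) to Slc2a1 was between 1.71 and 3.36 in control samples, 0.225 and 0.487 in IMQ + NS samples, and 0.928 and 1.53 in IMQ + BZLF samples. These 3 ranges did not overlap. Pfkm to Pfkp was between 3.14 and 8.98 in control, 0.718 and 1.31 in IMQ + NS, and 1.01 and 1.53 in IMQ + BZLF samples. Ldhb to Ldha, the heart-type to the muscle-type subunit, was between 0.404 and 0.549 in control, 0.193 and 0.343 in IMQ + NS, and 0.266 and 0.309 in IMQ + BZLF samples. For both of these ratios the treated groups overlapped each other and not the controls.

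Neutrophil markers, and part of the epidermal markers, also fell with BZLF, as Slc2a1, Pgk1, Pkm and Ldha did, while of these 4 only Slc2a1 shared their rise in IMQ + NS against control samples. All 10 neutrophil markers, led by S100a8 and S100a9, which activated keratinocytes also express, rose in IMQ + NS against control samples and fell when BZLF was compared with saline. Their sum was 37.8 to 56.5 FPKM in control, 3144 to 9962 FPKM in IMQ + NS and 64.7 to 86.7 FPKM in IMQ + BZLF samples. In IMQ + NS samples S100a8 averaged 3010 FPKM and S100a9 2909 FPKM, nearly all of the mean sum of 5996 FPKM. Of 4 markers of hyperproliferative keratinocytes, 4 rose in IMQ + NS against control samples and 3 fell with BZLF. Their sums were 190 to 616, 2344 to 4207 and 1140 to 1392 FPKM in the 3 groups. Krt17, not called with BZLF, was the largest part, at 310, 1569 and 1143 FPKM on average. With BZLF against saline the means of Krt6a, Krt6b and Krt16 went from 563, 407 and 530 to 105, 19.9 and 21.5 FPKM. IMQ + NS replicate 3 had the highest sum of both lists and the highest level within its group of 7 of the 9 genes, the exceptions being Hk2 and Aldoa. Of 9 basal and suprabasal keratinocyte markers, 5 rose and 2 fell in IMQ + NS against control samples, and 0 rose and 3 fell with BZLF. Macrophage markers fell in 7 of 8 cases and rose in 1 in the former comparison and fell in 2 of 8 in the latter, and adipocyte markers fell in 9 of 10 cases and in 0 of 10. Of 10 proliferation markers 9 rose in IMQ + NS against control samples and 1 fell with BZLF, and of 10 hair shaft markers 10 rose in the former comparison and 0 were called in the latter. The part of these cells in the values of Slc2a1, Pgk1, Pkm and Ldha was not tested.

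The other glycolysis genes were then counted, 22 genes of which 17 were tested. In IMQ + NS against control samples 4 rose (Aldoc, Bpgm, Pgam1 and Eno1) and 9 fell, the largest falls being those of Pgam2 and Eno3. Eno1, the ubiquitous enolase, measured 88.6, 97.0, 63.9 and 74.8 FPKM in control, 117, 125, 165 and 138 FPKM in IMQ + NS, and 93.9, 93.3, 88.3 and 95.8 FPKM in IMQ + BZLF samples. It rose by 0.75 (SE 0.15) on the log2 scale in IMQ + NS against control samples (limma adjusted p = 0.0031). With BZLF 0 rose and 4 fell (Hk3, Pfkl, Pgam1 and Eno1). Eno1 fell by 0.54 (SE 0.10, limma adjusted p = 0.015), close to Pgk1 and Pkm. Hk3, a hexokinase known from myeloid cells, measured 2.94, 2.73, 3.50 and 3.23 FPKM in IMQ + NS samples and 0.959, 1.25, 1.19 and 1.35 FPKM in IMQ + BZLF samples. It fell by 1.32 on the log2 scale (SE 0.13, limma adjusted p = 0.00134). In IMQ + BZLF against control samples 2 of the 17 rose and 10 fell.

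Gapdh, the glyceraldehyde-phosphate dehydrogenase gene often used as a reference, was listed at 6.96 to 20.5 FPKM, far below its neighbours in the chain. It fell by 0.74 (SE 0.19) in IMQ + NS against control samples (limma adjusted p = 0.00999), and its log2 fold change with BZLF was -0.34 (SE 0.14, limma adjusted p = 0.207). Its value is uncertain, since 76 other annotated genes, 74 of them pseudogenes, hold a stretch of at least 300 bases with at least 95% identity to its transcript. By the same measure Pgk1 had 4 such copies, Ldha 3, Tpi1 1 and Pkm 1, all pseudogenes, and the other 5 members had 0. Eno1 had 3, of which 2 are pseudogenes and 1, Eno1b, has its own row in the table, so the Eno1 values are uncertain too. How reads shared with those copies were counted is not given in the sources used here, so the levels of these 4 members are uncertain to that extent.

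**Figure D4:**
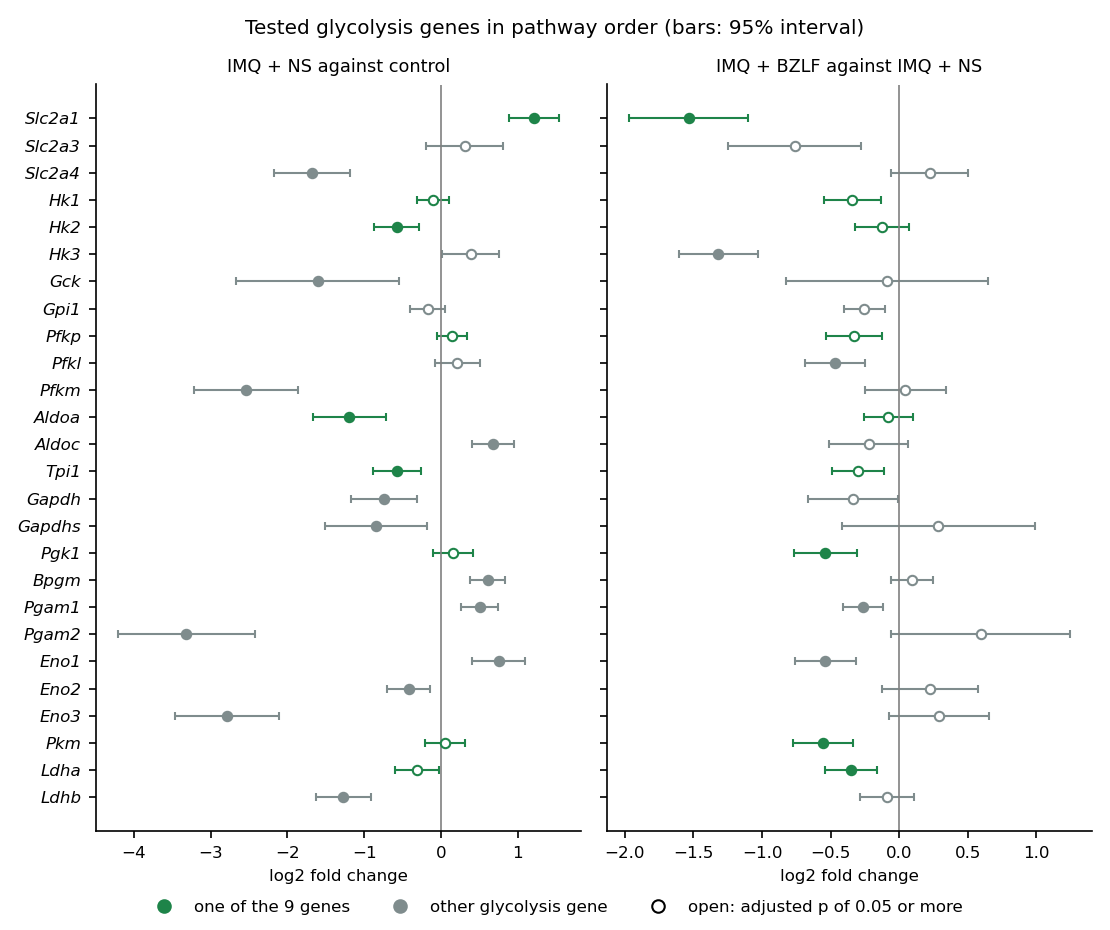
Log2 fold change (x axis, with 95% intervals from limma) of the 9 genes and the 17 other tested glycolysis genes, ordered along the pathway (y axis), for IMQ + NS against control and IMQ + BZLF against IMQ + NS samples. Open points did not pass the test. In the left panel the muscle isozymes Pfkm, Pgam2 and Eno3 lie at -2.54, -3.32 and -2.78, and in the right panel Hk3 and Slc2a1 lie lowest, at -1.32 and -1.54.

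Genes that steer the pathway and carry its products were counted next, and their lists were chosen with earlier results of these data known. Of 10 tested regulators, 3 rose and 4 fell in IMQ + NS against control samples. Pdk4, a kinase that shuts pyruvate dehydrogenase, fell by 2.96 on the log2 scale from 36.1 ± 20.7 to 4.0 ± 1.22 FPKM (SD, n = 4 each, limma adjusted p = 0.00087), and Pdk2 fell by 1.58 (limma adjusted p = 0.000703). With BZLF, Pdk4 rose by 1.20 to 9.08 ± 1.28 FPKM (limma adjusted p = 0.0116), the only rise among the 10, and Pfkfb4, which sets the level of fructose 2,6-bisphosphate, fell by 0.34 (limma adjusted p = 0.0237). In IMQ + BZLF against control samples 3 regulators rose and 4 fell.

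Of 6 genes of lactate and pyruvate transport, 1 rose and 4 fell in IMQ + NS against control samples. The mitochondrial pyruvate carrier subunits Mpc1 and Mpc2 fell by 1.24 and 1.29 on the log2 scale (limma adjusted p = 4.73e-05 and 0.000105). With BZLF 0 rose and 2 fell, the lactate transporters Slc16a3 (MCT4) and Slc16a1 (MCT1). Slc16a3, the exporter of strongly glycolytic cells, measured 9.68, 4.87, 8.84 and 10.7 FPKM in control samples. It was at 4.61, 5.69, 10.4 and 6.77 FPKM in IMQ + NS samples and at 2.08, 1.81, 2.02 and 2.78 FPKM in IMQ + BZLF samples. The last group lay below all other samples, and Slc16a3 fell by 1.57 with BZLF (SE 0.23, limma adjusted p = 0.00747). Slc16a1 fell by 0.60 (SE 0.15, limma adjusted p = 0.0447). In IMQ + BZLF against control samples 5 of the 6 fell, Slc16a3 by 1.88 (limma adjusted p = 0.000471), and Slc16a7 (MCT2) rose by 1.56 (limma adjusted p = 0.00241).

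The list of HIF1A, its regulators and its targets outside glycolysis held genes that moved in both directions. Hif1a measured 21.3, 29.0, 19.5 and 18.7 FPKM in control samples and 39.8, 39.5, 56.8 and 45.7 FPKM in IMQ + NS samples, and rose by 1.04 on the log2 scale (SE 0.17, limma adjusted p = 0.000893). With BZLF it measured 30.4, 35.5, 30.5 and 34.7 FPKM, below all IMQ + NS samples, and its log2 fold change of -0.46 (SE 0.12) missed the threshold (limma adjusted p = 0.0523). Of the 20 genes of this list, 3 rose and 7 fell in IMQ + NS against control samples. P4ha2, a collagen prolyl hydroxylase subunit, fell by 1.77 (limma adjusted p = 6.27e-06) and Bnip3, a mitophagy receptor, by 1.22 (limma adjusted p = 0.00641). With BZLF 0 rose and 1 fell, the transcriptional repressor gene Bhlhe40, by 0.38 (limma adjusted p = 0.0495). In IMQ + BZLF against control samples 3 rose and 10 fell. Hif1a rose by 0.58 (limma adjusted p = 0.0083), while Bnip3 fell by 1.46 and P4ha2 by 1.26 (limma adjusted p = 0.00256 and 0.000871).

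The genes of glycogen and of the pentose phosphate route, which branch from glucose 6-phosphate, numbered 15. In IMQ + NS against control samples 2 rose and 7 fell. Pgm2, a phosphoglucomutase, rose by 1.84 (limma adjusted p = 1.8e-05), and Pygm, the muscle glycogen phosphorylase, fell by 2.70 (limma adjusted p = 0.00021). With BZLF the branching enzyme gene Gbe1 rose by 0.45 (limma adjusted p = 0.0446) and Pgd, of the oxidative pentose phosphate route, fell by 0.26 (limma adjusted p = 0.0196), and 13 did not pass. In IMQ + BZLF against control samples 2 rose and 6 fell, with Pgm2 at 1.97 and Pygm at -2.73 (limma adjusted p = 2.84e-05 and 0.000132).

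The genes whose pattern over the 12 samples lay nearest to a member were sought among 12657 genes with a mean of at least 1 FPKM, by the root mean square difference of their centred log2 values. Nearest to Slc2a1 were Fyb at 0.161, Spn at 0.178 and Pla2g4e at 0.215, against a spread of Slc2a1 around its own mean of 0.702. Fyb and Spn are known from leukocytes. Fyb averaged 5.39 FPKM in control, 10.9 FPKM in IMQ + NS and 4.30 FPKM in IMQ + BZLF samples. Nearest to Aldoa, with a spread of 0.631, were Ugp2 at 0.0907, Gys1 at 0.103 and Prdx6 at 0.115. Nearest to Ldha, with a spread of 0.307, were Atp5g1 at 0.0902, Hebp1 at 0.0942 and Mvp at 0.107. These 3 members thus had 3 separate sets of nearest genes. These distances are descriptions over 12 samples and carry no test.

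By RefSeq on GRCm38.p6, the assembly that mm10 names, the 9 genes lie at separate places on 7 chromosomes. Slc2a1 is at chr4:119108745-119137330 (+ strand), Hk1 at chr10:62268855-62379920 (-), Hk2 at chr6:82725025-82774454 (-), Pfkp at chr13:6579874-6649060 (-) and Aldoa at chr7:126795234-126800994 (-). Tpi1 is at chr6:124810586-124814158 (-), Pgk1 at chrX:106187100-106203699 (+), Pkm at chr9:59656576-59679372 (+) and Ldha at chr7:46842274-46855627 (+). All 9 symbols matched a RefSeq gene.

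The promoters of the 4 genes that fell with BZLF are shown, since these genes fell in the same comparison, though not in that of IMQ + NS with control samples, and glycolysis promoters are known for hypoxia response elements. Each line gives the 250 bases before an annotated start from RefSeq (GRCm38.p6), all on the + strand and read 5′ to 3′, with every place in capitals that holds ACGTG or GCGTG, the core letters of that element, on either strand (as CACGT or CACGC on the other), overlapping places merged. The windows are Slc2a1 at chr4:119108495-119108744, Pgk1 at chrX:106186850-106187099, the second annotated start of Pkm at chr9:59656977-59657226 and the first of Ldha at chr7:46845554-46845803.
Slc2a1: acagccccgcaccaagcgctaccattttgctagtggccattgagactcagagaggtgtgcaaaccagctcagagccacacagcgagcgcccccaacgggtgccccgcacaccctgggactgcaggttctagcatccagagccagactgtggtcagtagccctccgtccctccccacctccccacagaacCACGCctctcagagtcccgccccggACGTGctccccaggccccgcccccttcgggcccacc
Pgk1: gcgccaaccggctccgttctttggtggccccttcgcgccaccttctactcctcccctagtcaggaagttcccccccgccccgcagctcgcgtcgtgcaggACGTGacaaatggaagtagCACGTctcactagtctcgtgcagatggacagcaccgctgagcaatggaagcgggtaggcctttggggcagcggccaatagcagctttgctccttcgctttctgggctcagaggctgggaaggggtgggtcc
Pkm: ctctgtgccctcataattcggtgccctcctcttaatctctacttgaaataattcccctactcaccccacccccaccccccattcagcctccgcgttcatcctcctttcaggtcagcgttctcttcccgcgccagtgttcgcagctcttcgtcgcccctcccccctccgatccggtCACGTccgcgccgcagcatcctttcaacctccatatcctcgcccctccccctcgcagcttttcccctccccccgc
Ldha: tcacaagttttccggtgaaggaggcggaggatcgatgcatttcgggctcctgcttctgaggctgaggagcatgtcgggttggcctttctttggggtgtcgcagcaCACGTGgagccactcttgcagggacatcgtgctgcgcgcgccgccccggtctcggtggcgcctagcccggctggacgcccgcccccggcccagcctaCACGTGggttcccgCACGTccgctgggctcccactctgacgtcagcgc

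The Slc2a1 and Pgk1 windows held 2 such places each, the Pkm window 1 and the Ldha window 3. For Pkm and Ldha, which have 2 annotated starts each, the window with more places is shown, so their counts are not typical of the gene: the first Pkm window held 0 and the second Ldha window 1. Of 14 windows of the 9 genes 10 held at least 1, and Tpi1 had no window that did. The letters are short and common: 38.6% of 32851 RefSeq windows of the same length held at least 1, and 51.9% of 15253 windows of tested genes. GC content was 66.4% in the Slc2a1, 62.8% in the Pgk1, 61.6% in the Pkm and 67.2% in the Ldha window, all above the median of 58.8% over windows of tested genes. Hk2 and Pfkp, which were not called with BZLF, also held 2 and 3 places. Hk1 and Aldoa, not called either, held 2 places in the second Hk1 window and the shared 1 of Aldoa. A match describes the letters in the window and is not a measured binding site.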

How the data were processed

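Total RNA from 12 back skin samples was sequenced, and the authors deposited 1 FPKM value per gene and sample, normalized to transcript length and library depth. The study's methods name a stranded Ribo-Zero Gold library, Bowtie2 and eXpress, whereas the labels name a VAHTS Universal V6 kit, fastp, HISAT2, HTSeq, R 3.2.0 and mm10, and which made the table was not settled. Groups and replicate numbers came from the sample titles, in which the IMQ + NS samples are written MQ_NS. No label names a batch.

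FPKM values summed to between 444660 and 506622 per sample. Whole reads could not be recovered: only 26.1% of 24870 low values came within 0.05 of an integer when divided by the gene's smallest value. The depth is therefore unknown and precision rests on the replicates. No pair of samples within a group shared a nonzero value across genes, so none was treated as a duplicate.

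Genes with a mean of at least 0.1 FPKM were tested on log2(FPKM + 0.1) with limma 3.58.1 in R 4.3.3 (moderated variances with a trend), for each pair of groups separately, with Benjamini-Hochberg adjustment over all tested genes. The constant understates fold changes of low genes. The study tested counts with DESeq2, and counts were not used here. Other constants, filters, scalings and fits, and leaving out each sample, were tried as alternatives. Scripts were tested on simulated data. Figures used matplotlib 3.10.9 under Python 3.11.15, and copies of transcripts were sought with blastn 2.17.0 in GENCODE M21.

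The members and lists were chosen with earlier results of these data known. Named were all 9 members, Gapdh, Pfkm, Pgam2, Eno3 and Hif1a, the 2 called genes of at least 1 FPKM with the largest change per list and comparison, the 3 genes nearest to each of Slc2a1, Hk2, Aldoa and Ldha (those of Hk2 are not reported here), and the most abundant markers. Other genes that a count of 5 or fewer singles out, and Slc2a4 and Ldhb in ratios, were named after their values were seen.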

Additional observations from a re-analysis of the deposited data

Results flagged for a closer look

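In each group of 4 samples, Dixon's test compared the highest and lowest values with their neighbours. It covered the 9 genes, 5 other named genes and the summed muscle markers. Of 45 groups 7 held a sample that stood apart, where chance gives about 1 in 20 for independent groups. These groups are not independent, since the same samples enter for every gene, so the 7 carry no test of an excess. Control replicate 2 stood apart with 647 FPKM of Aldoa, 57.1 FPKM of Eno3 and 5494 FPKM of summed muscle markers, each the lowest of its group. IMQ + NS replicate 2 had 22.5 FPKM of Eno3, the highest of its group, beside the highest muscle sum of that group. Hk1 stood at 13.4 FPKM in IMQ + NS replicate 3, the highest, and at 7.95 FPKM in IMQ + BZLF replicate 1, the lowest of its group. Pfkp in control replicate 3 was the lowest of its group at 16.1 FPKM, in a group whose values span less than 1 FPKM.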

How the results depend on the processing

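Constants of 0.01 and 1, no filter, a filter at 1 FPKM, 3 other scalings, 1 fit of all samples, no trend, robust moderation, a replicate block and leaving out each sample were tried. The count of members lower in IMQ + NS than control samples was 3 and became 5 with equal sums and 5 with quantile normalization. That of members lower in IMQ + BZLF than IMQ + NS samples was 4 and ranged from 2 to 5 when single samples were left out, falling to 2 when IMQ + NS replicate 4 was dropped, and to 2 when IMQ + BZLF replicate 2 was. The count lower in IMQ + BZLF than control samples was 7 and reached 9 with quantile normalization, where Slc2a1 and Pfkp were also called. The sign turned for Pkm in IMQ + NS against control samples, at -0.0761 with equal sums and -0.0285 without IMQ + NS replicate 3 (-0.0285 to 0.1468 over the samples left out), and for no other member. The causes were not tested.

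Correlations of deviations between same-numbered samples ranged from -0.152 to 0.260. They were over 0.1 for numbers 3 and 4 in all 3 comparisons and under 0.1 for numbers 1 and 2, so the numbers were not taken to pair the samples. With the replicate block 3 members were lower in IMQ + BZLF than IMQ + NS samples, Ldha being lost (limma adjusted p = 0.0567), and over all genes 179 were higher and 752 lower. Without counts, the sampling error of a single value is unknown.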
